A study of Mus musculus with 12 samples.

Results

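The 10 genes described here encode secreted proteins of the extracellular matrix, the mesh that connective tissue cells lay down around themselves. They are the small leucine-rich proteoglycans decorin (Dcn), biglycan (Bgn), lumican (Lum) and fibromodulin (Fmod), matrix Gla protein (Mgp), the thrombospondins Thbs1 and Thbs2, periostin (Postn), and the heparin-binding growth factors pleiotrophin (Ptn) and midkine (Mdk). They were chosen by name, with earlier results of these data known. Every probe of an Illumina mouse bead array whose annotated gene symbol was one of the 10 was taken. That gave 21 of 45281 probes, of which 17 were kept, and all 10 genes were among the 10096 genes tested. Transcripts were measured in 4 groups of 3 arrays. The iPS6F group were male pluripotent cells induced with 6 factors, namely Brg1 and Baf155 on top of Oct4, Sox2, Klf4 and c-myc. The iPS4F group were male pluripotent cells induced with the last 4 of these factors alone. The ESC group were OG2 embryonic stem cells, mixed from females and males, and the MEF group were OG2 embryonic fibroblasts from males. OG2 is a mouse line that carries a green fluorescent reporter driven by Oct4 regulatory sequence. The labels do not give the mouse line of the iPS cells, how the factors were delivered, or whether a group was 1 clone.

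Decorin, biglycan, lumican and fibromodulin have a core of leucine-rich repeats that sits on collagen fibrils and controls how the fibrils pack. The first pair carry chondroitin or dermatan sulfate chains and the other two carry keratan sulfate. Mgp depends on vitamin K to carboxylate its glutamates and keeps cartilage and vessel walls free of mineral. The thrombospondins and periostin are matricellular proteins, which signal to cells from the matrix more than they build it. Pleiotrophin and midkine form a family of 2 in mammals, bind heparan and chondroitin sulfate, and act through the receptor phosphatase Ptprz1, syndecans and other surface proteins. Fibroblasts are a main source of most of these proteins, while midkine is also made by embryonic epithelia and stem cells.

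The array values are log2 intensities after background correction and quantile normalization. A probe is called detected on an array where the detection p-value deposited beside its intensity was under 0.05, and the dimmest detected probe of an array stood between 4.35 and 4.56. Detected probes numbered 14107 to 17741 of 45281 per array, and arrays of one group correlated at 0.990 to 0.995 across genes. The mean raw intensity was 177 to 209 on the iPS6F arrays, 213 to 237 on the iPS4F arrays, 139 to 195 on the ESC arrays and 172 to 186 on the MEF arrays. Of 12 fibroblast markers 11 were tested. All 11 were detected on every MEF array, against 3 on all iPS6F arrays, 4 on all iPS4F arrays and 0 on all ESC arrays. All 8 pluripotency markers were detected on every iPS6F, iPS4F and ESC array, and 5 of them, Nanog, Esrrb, Zfp42, Tdgf1 and Utf1, on no MEF array. MEF also held macrophage markers (5 of 7 tested), with a summed background-corrected intensity of 13.4 to 24.6 on iPS6F arrays, 9.09 to 16.2 on iPS4F arrays, 11.3 to 17.5 on ESC arrays and 827 to 1210 on MEF arrays. For smooth muscle markers (3 of 4 tested) these sums were 70 to 104, 239 to 262, 124 to 142 and 16100 to 17600, in the same order of groups. Whether these markers came from separate cells in the MEF cultures was not tested, nor was the part of any such cells in the MEF levels below. In bulk RNA fewer cells of a type cannot be told apart from less RNA per cell.

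The sequence just before a transcript's start was at hand for 5 of the 10 genes, Bgn, Fmod, Postn, Ptn and Thbs2, in a RefSeq promoter table of build GRCm38.p6. The 250 bases before the start are shown for Ptn, Bgn and Thbs2, the genes among these whose signal was more than 100-fold apart between MEF and every pluripotent group. They run 5′ to 3′ on the gene's strand and end at the base before the start. Capitals mark matches, on either strand, to the TATA box TATAAA, the AP-1 binding site TGANTCA, the CCAAT box or the GC box GGGCGG.
Ptn, chr6:36810180-36810429, minus strand: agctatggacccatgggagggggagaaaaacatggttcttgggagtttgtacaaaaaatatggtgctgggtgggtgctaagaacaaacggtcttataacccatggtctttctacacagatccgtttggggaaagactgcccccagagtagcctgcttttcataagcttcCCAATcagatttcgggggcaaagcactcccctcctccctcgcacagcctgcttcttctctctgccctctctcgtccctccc
Bgn, chrX:73483351-73483600, plus strand: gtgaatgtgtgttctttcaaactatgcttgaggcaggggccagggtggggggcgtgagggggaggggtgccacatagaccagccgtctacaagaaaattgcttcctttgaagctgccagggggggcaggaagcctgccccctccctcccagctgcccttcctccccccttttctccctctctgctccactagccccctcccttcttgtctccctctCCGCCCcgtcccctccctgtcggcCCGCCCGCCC
Thbs2, chr17:14694263-14694512, minus strand: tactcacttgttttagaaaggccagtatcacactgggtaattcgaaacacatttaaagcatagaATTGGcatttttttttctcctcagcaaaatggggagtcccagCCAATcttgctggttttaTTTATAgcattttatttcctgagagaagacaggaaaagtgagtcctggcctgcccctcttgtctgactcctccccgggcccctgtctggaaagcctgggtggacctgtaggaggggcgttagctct
The stretches do not share a layout. The Ptn stretch held 1 CCAAT match, beginning 81 bases before the start, and 5 CG pairs. The Bgn stretch held 3 GC boxes in reverse, beginning 34, 10 and 6 bases before the start, the last 2 overlapping by 2 bases, with 7 CG pairs and a G plus C content of 64.4%. The Thbs2 stretch held 1 TATA match in reverse at 126 bases and 2 CCAAT matches at 186 and 144 bases, with a G plus C content of 46.8%. Across all 32851 promoters of the table, 12.4% held TATAAA, 6.75% TGANTCA, 33.8% CCAAT and 32.7% GGGCGG, and the median was 6 CG pairs and a G plus C content of 52.4%. A match describes the letters and is not evidence of a bound factor.

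Against MEF, 9 of the 10 genes were lower in all 3 pluripotent groups, and Mdk alone changed direction between them. In iPS6F cells 10 of 10 were lower than in MEF (adjusted p under 0.05), where 39.4% of all genes tested were lower, 39.2% higher and 78.6% called either way. In iPS4F cells 10 were lower, where 39.1% of all genes were lower, 39.8% higher and 78.9% called. In ESC 9 were lower and 1 was higher, where 36.3% of all genes were lower, 40.3% higher and 76.5% called. The arrays of the 2 groups did not overlap for 10 of the 10 genes in each comparison, as for 80% of all genes in iPS6F cells, 80.7% in iPS4F cells and 77% in ESC. Of the 10 genes 8 were at least 2-fold lower in each comparison, against 21.5% of all genes in iPS6F cells, 21% in iPS4F cells and 18.8% in ESC. The 10 genes were chosen with earlier results of these data known, so counts beside all genes are a description and not a test. Among the 10 genes, 8 had passed the detection filter through MEF alone and therefore had to lie lower elsewhere, Bgn had passed through iPS6F, iPS4F and MEF, and Mdk through all 4 groups. The median log2 difference from MEF over the 10 genes was -8.07 in iPS6F cells, -7.83 in iPS4F cells and -8.04 in ESC, and -7.92, -7.77 and -7.87 with undetected values raised to the dimmest detected probe, beside 0.03, 0.04 and 0.08 over all genes. The 3 comparisons share the MEF arrays. The tests are limma's moderated tests over 12 arrays with Benjamini-Hochberg adjustment over all genes, and the labels do not say that the arrays came from separate cultures, so a p measures only the spread between these arrays.

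**Figure D1:**
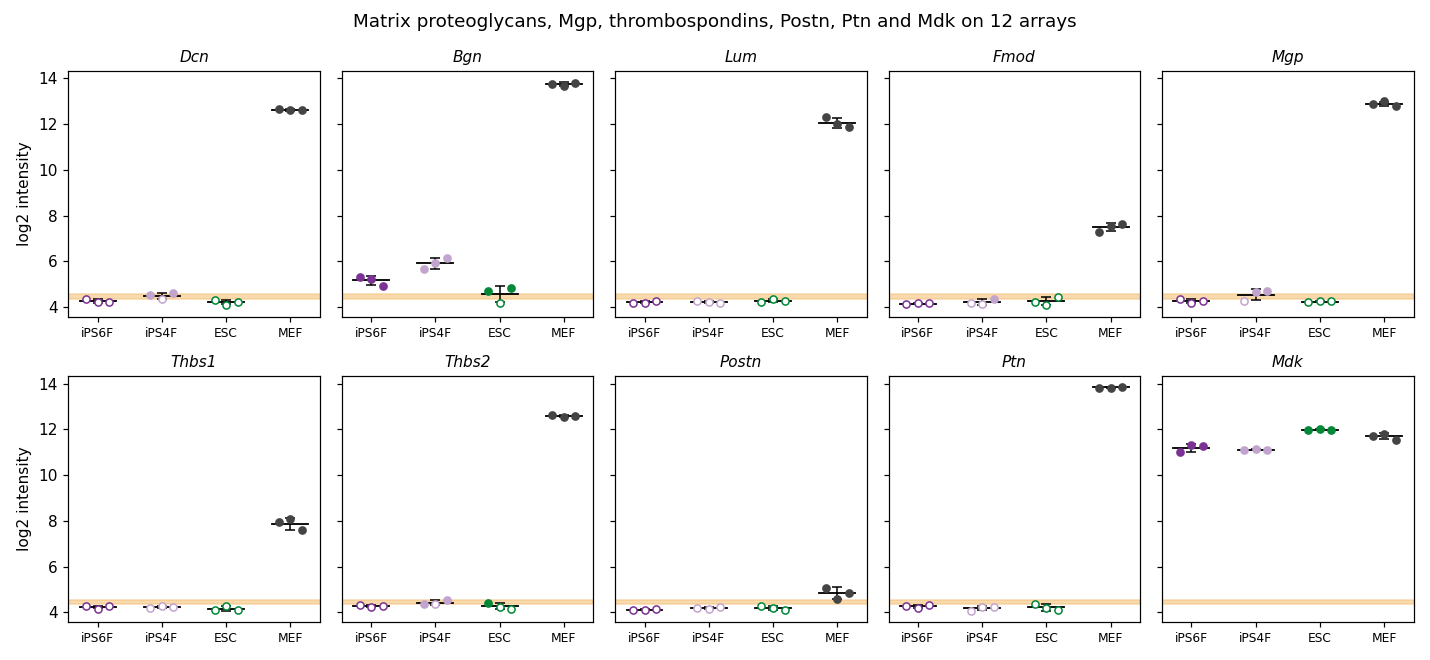
Log2 intensity of the representative probe of each of the 10 genes on the 12 arrays, by group, with filled points where the probe was detected and open points where it was not, the bar and whiskers giving mean ± SD (n = 3). The orange band spans the dimmest detected value of the arrays, 4.35 to 4.56, and for all genes but Bgn and Mdk the pluripotent arrays lie in or below it or just above it.

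The proteoglycan decorin binds collagen and transforming growth factor beta. Its probe read 4.36, 4.24 and 4.21 on the iPS6F arrays, 4.55, 4.34 and 4.60 on the iPS4F arrays, 4.30, 4.11 and 4.24 on the ESC arrays, and 12.67, 12.60 and 12.59 on the MEF arrays. Every MEF array lay far above every other array, and the probe was detected on 2 iPS4F arrays and on no iPS6F or ESC array. Where the probe of a gene was undetected on all arrays of a group, its fold is a bound, the MEF mean over the higher, per array, of the probe's own value and the dimmest detected probe. Dcn was at least 300-fold lower in iPS6F cells (log2 difference -8.36 ± 0.11, SE, adjusted p = 4.22e-19), 279.6-fold lower in iPS4F cells, with 2 of 3 arrays detected (-8.13), and at least 285-fold lower in ESC (-8.41). Of 3 further Dcn probes, 1 read 10.19 ± 0.29 in MEF and was at least 55.5-fold, 57.1-fold and 52.9-fold lower in iPS6F, iPS4F and ESC, and another read 5.50 in MEF and was at least 2.14-fold, 2.2-fold and 2.04-fold lower. The last was detected on 2 MEF arrays only and was not kept. The 3 kept probes of this gene had all passed the filter through MEF alone, so their shared direction was fixed by it.

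Biglycan, the X-linked relative of decorin, was the proteoglycan that stayed above background in the pluripotent cells. It read 5.33, 5.25 and 4.94 on the iPS6F arrays, 5.68, 5.91 and 6.15 on the iPS4F arrays, 4.72, 4.16 and 4.82 on the ESC arrays, and 13.77, 13.66 and 13.80 on the MEF arrays. The probe was undetected on ESC array 2 alone, and no 2 groups overlapped. Relative to MEF, Bgn was 380.3-fold lower in iPS6F cells (-8.57 ± 0.16, adjusted p = 2.99e-17), 227.3-fold lower in iPS4F cells (-7.83) and 578.2-fold lower in ESC (-9.18, 2 of 3 arrays detected).

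Lumican and fibromodulin, the keratan sulfate bearing pair, were both lower than in MEF in all 3 pluripotent groups. Lum read 12.31, 11.99 and 11.87 on the MEF arrays and between 4.18 and 4.35 on the other 9 arrays, where it was never detected. It was at least 203-fold lower in iPS6F cells (-7.84 ± 0.11, adjusted p = 1.55e-18), at least 208-fold in iPS4F cells and at least 193-fold in ESC. A second Lum probe read 9.82 ± 0.24 in MEF, and was at least 42.8-fold, 44-fold and 40.7-fold lower. Fmod read 7.29, 7.56 and 7.62 on the MEF arrays and between 4.11 and 4.44 on the other 9, of which iPS4F array 3 alone was detected. It was at least 8.54-fold lower in iPS6F cells (-3.34 ± 0.12, adjusted p = 9.61e-14), 9.54-fold lower in iPS4F cells with 1 of 3 arrays detected, and at least 8.13-fold lower in ESC. Its second probe, at 5.21 ± 0.12 in MEF and detected on 1 iPS6F array, was 1.94-fold lower in iPS6F cells, at least 1.81-fold in iPS4F cells and at least 1.67-fold in ESC.

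Several genes of the small leucine-rich family lie side by side in the mouse genome, and the arrays allow each row of neighbours to be read. By the gene order of GRCm38.p6, Dcn, Lum, Kera and Epyc are neighbours on chromosome 10, Optc, Prelp and Fmod on chromosome 1, and Ecm2, Aspn, Omd and Ogn on chromosome 13, while Bgn lies apart on X. Of 17 family genes listed, the 4 described here included, 16 had a probe. In MEF 7 of the 16 had a probe detected on all 3 arrays, namely Dcn, Lum, Fmod, Prelp, Ogn, Podn and Bgn, and 7 had none detected on any MEF array. On iPS6F and on iPS4F arrays 1 of the 16, Bgn, was detected on all 3, and on ESC arrays 0. Detected MEF signal did not run along whole rows. Optc, Kera, Ecm2, Aspn and Omd had 1 probe each, and an undetected probe need not mean an absent transcript. A second Ptn probe, for example, was undetected on all 12 arrays while the first was bright in MEF. On chromosome 10 Dcn and Lum were detected on all 3 MEF arrays, Kera on 2 and Epyc on 0, on chromosome 1 Optc was on 0 beside Prelp and Fmod, and on chromosome 13 Ogn was on 3 beside Ecm2 and Omd on 0 and Aspn on 1. The family genes tested beside the 4, Ogn (osteoglycin), Prelp and Podn (podocan), were lower in all 3 pluripotent groups, 3 of 3, and all 3 had passed the filter through MEF alone, so they had to lie lower elsewhere. Prelp was at least 23.2-fold lower in iPS6F cells, 26.06-fold in iPS4F cells with 1 of 3 arrays detected and at least 22.1-fold in ESC, and Podn at least 6.75-fold, 6.94-fold and 6.43-fold. Ogn was at least 224-fold lower in iPS6F cells (-8.10 ± 0.11), at least 230-fold in iPS4F cells and at least 213-fold in ESC, with 12.20 ± 0.23 in MEF.

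Matrix Gla protein, the mineralization inhibitor, read 4.36, 4.18 and 4.27 on the iPS6F arrays, 4.28, 4.65 and 4.72 on the iPS4F arrays, 4.21, 4.28 and 4.25 on the ESC arrays, and 12.86, 12.99 and 12.81 on the MEF arrays. The MEF arrays lay above all others, and iPS4F arrays 2 and 3 were the only others with detected signal. Mgp was at least 359-fold lower in iPS6F cells (-8.61 ± 0.12, adjusted p = 8.9e-19), 323.3-fold lower in iPS4F cells with 2 of 3 arrays detected (-8.34), and at least 342-fold lower in ESC (-8.64). Of the vitamin K cycle and Gla proteins, 4 of 5 listed were tested, and 4 were lower in iPS6F cells, 3 in iPS4F cells and 3 in ESC. Over all genes tested, 39.4%, 39.1% and 36.3% were lower in the same order. Gas6, a vitamin K dependent ligand of the Tyro3, Axl and Mertk receptors, differed by -6.39 ± 0.11, -6.59 ± 0.11 and -6.15 ± 0.11 (SE) from MEF in iPS6F, iPS4F and ESC. Vkorc1, which recycles vitamin K, differed by -2.07, -1.98 and -2.11, and Ggcx, the carboxylase itself, by -1.78, -1.96 and -1.85, the last with 2 of 3 arrays detected.

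Both thrombospondins were lower than in MEF in all 3 pluripotent groups. Thbs2, which restrains vessel growth and regulates collagen assembly, read 4.33, 4.23 and 4.27 on the iPS6F arrays, 4.38, 4.35 and 4.55 on the iPS4F arrays, 4.40, 4.23 and 4.16 on the ESC arrays, and 12.64, 12.52 and 12.59 on the MEF arrays. The MEF arrays stood apart, and among the rest only iPS4F arrays 1 and 3 and ESC array 1 were detected. Thbs2 was at least 291-fold lower in iPS6F cells (-8.31 ± 0.10, adjusted p = 4.22e-19), 285.1-fold lower in iPS4F cells and 318.7-fold lower in ESC, with 2 of 3 and 1 of 3 arrays detected in the last pair. Thbs1, the platelet thrombospondin that activates latent transforming growth factor beta, read 7.94, 8.07 and 7.58 on the MEF arrays and 4.11 to 4.30 on the other 9 arrays, undetected throughout. It was at least 11.1-fold lower in iPS6F cells (-3.63 ± 0.12, adjusted p = 3.32e-14), at least 11.4-fold in iPS4F cells and at least 10.5-fold in ESC.

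Periostin, a matricellular protein of periosteum, heart valves and wound beds, was close to the detection limit in MEF. Its tested probe read 5.08, 4.57 and 4.86 on the MEF arrays and 4.10 to 4.30 on the other 9 arrays, where it was undetected, so the groups did not overlap. The log2 differences were -0.72 ± 0.12 in iPS6F cells (adjusted p = 3.69e-05), -0.64 ± 0.12 in iPS4F cells (0.000122) and -0.64 ± 0.12 in ESC (0.000134), which give at least 1.36-fold, 1.39-fold and 1.29-fold. With MEF array 3 left out and this probe held, a check chosen after seeing the data, the differences were -0.71, -0.63 and -0.62. Left to the rule of highest mean, that setting put another Postn probe (ILMN_1216882) in its place, which gave -0.48, -0.39 and -0.40 (adjusted p at most 0.0179). Over all arrays both other Postn probes failed the filter, ILMN_1216882 with 2 MEF arrays detected and the last with none.

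Other matricellular genes were tested from a list of 16 that left out Thbs1, Thbs2 and Postn. Of 12 tested, 12 were lower in iPS6F cells, 11 in iPS4F cells and 12 in ESC, and 0 were higher, with median log2 differences of -3.17, -3.17 and -3.16. Of the 12, 6 had passed the filter through MEF alone. With each array scaled to its median, the counts were 11, 10 and 12. Without that scaling, 39.4%, 39.1% and 36.3% of all genes tested were lower in iPS6F, iPS4F and ESC. Tenascin C (Tnc), a hexameric glycoprotein of remodelling tissue, was 157-fold lower in iPS6F cells with 1 of 3 arrays detected, 142.4-fold lower in iPS4F cells and at least 149-fold lower in ESC, where it was undetected. Ccn4, a Wnt-induced matricellular protein, was at least 115-fold, 118-fold and 110-fold lower in the same order. Tgfbi, which binds collagen and integrins, differed by -5.12, -5.12 and -4.82. Sparc, the collagen-binding protein osteonectin, differed by -3.99, -4.49 and -5.20. Against ESC it was higher in iPS6F cells (1.21 ± 0.11, adjusted p = 2.77e-07) and in iPS4F cells (0.71 ± 0.11, 8.19e-05), and these values were 1.51 and 1.42 with median scaling. Between iPS6F and iPS4F cells Sparc differed by 0.51 (0.0334), a call lost with median scaling (0.09, 0.813). Thbs3, a further thrombospondin named here after its values were seen, differed from MEF by -2.28, -2.42 and -2.13, with 2 of 3 arrays detected in each pluripotent group.

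Pleiotrophin, a bright signal in MEF, was not detected in any pluripotent group. Its probe read 4.27, 4.21 and 4.32 on the iPS6F arrays, 4.08, 4.25 and 4.23 on the iPS4F arrays, 4.39, 4.18 and 4.11 on the ESC arrays, and 13.82, 13.83 and 13.84 on the MEF arrays. It was undetected on all 9 pluripotent arrays, and the MEF arrays were nearly alike. Ptn was at least 691-fold lower in iPS6F cells (-9.56 ± 0.10, adjusted p = 2.14e-19), at least 710-fold in iPS4F cells (-9.64) and at least 658-fold in ESC (-9.60). The size of such folds depends on how background is handled, since log2 differences of Ptn ran from -7.51 with no background correction to -13.1 with the authors' deposited log2 values, always in the same direction and called. A second Ptn probe was undetected on all 12 arrays.

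**Figure D2:**
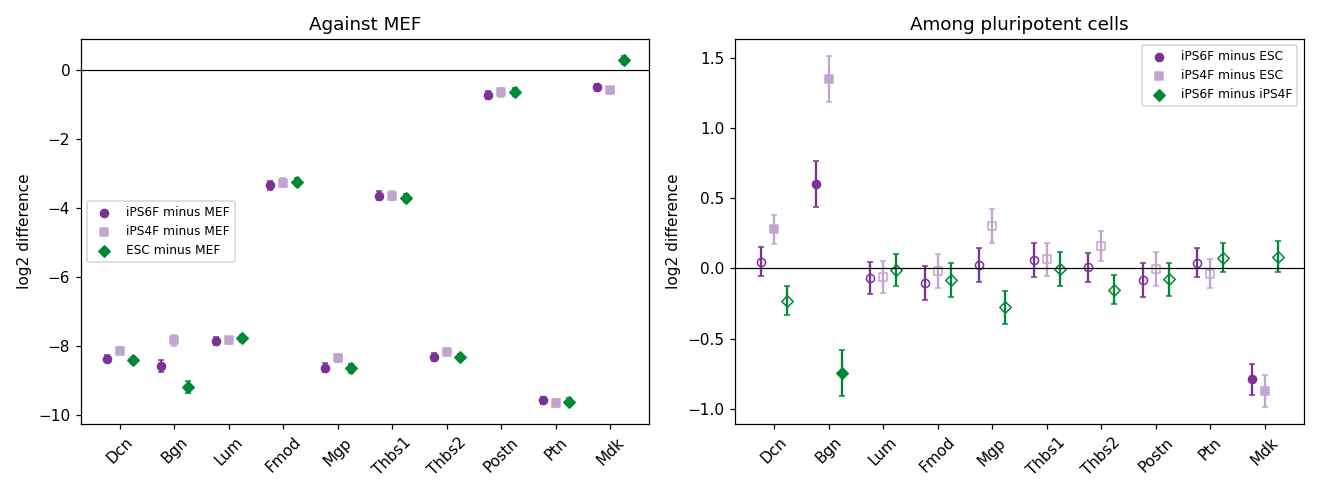
Log2 differences with SE of the 10 genes from limma, against MEF on the left and among the pluripotent groups on the right, with filled symbols where the adjusted p was under 0.05. On the left all values but those of Postn and Mdk lie below -3, and on the right Bgn runs up to 1.35 and Mdk down to -0.87, while the other genes lie between -0.28 and 0.30.

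Midkine, the other member of the pleiotrophin family, was bright in every group. Its representative probe read 11.001, 11.33 and 11.27 on the iPS6F arrays, 11.11, 11.15 and 11.09 on the iPS4F arrays, 11.96, 12.04 and 11.98 on the ESC arrays, and 11.73, 11.81 and 11.56 on the MEF arrays. The ESC arrays were the highest, the MEF arrays came next and the iPS arrays were lowest, with no overlap except between the 2 iPS groups. Mdk was lower than in MEF in iPS6F cells (-0.50 ± 0.11, adjusted p = 0.000619) and iPS4F cells (-0.58 ± 0.11, 0.000147), and higher than in MEF in ESC (0.29 ± 0.11, 0.024). Against ESC it was lower in iPS6F cells (-0.79 ± 0.11, 2.66e-05) and in iPS4F cells (-0.87 ± 0.11, 1.23e-05), and iPS6F and iPS4F cells differed by 0.08 ± 0.11 (0.836). Scaling each array to its median ended all 5 of these calls, with -0.33, -0.08 and 0.24 against MEF (adjusted p = 0.161, 0.742 and 0.323) and -0.58 and -0.32 against ESC (0.0608 and 0.231). The median of all genes against ESC stood at 0.09 and 0.39 under that scaling and at -0.07 and -0.05 without it.

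The array carries 4 probes for Mdk, and they did not give 1 answer. A second bright probe (ILMN_1254450) followed the first, at 9.45 ± 0.16 in iPS6F cells, 9.30 ± 0.11 in iPS4F cells, 10.42 ± 0.08 in ESC and 9.94 ± 0.30 in MEF (SD, n = 3). Fitted among 15294 probes, it differed from MEF by -0.49, -0.64 and 0.48 (adjusted p = 0.00478, 0.000606 and 0.00601) and from ESC by -0.97 and -1.12. Another probe (ILMN_3080012) was higher in all 3 pluripotent groups than in MEF, by 1.23 ± 0.15, 1.12 ± 0.15 and 1.27 ± 0.15 (SE), and differed from ESC by -0.04 and -0.15, neither called. This probe was dim, at 5.86, 5.75 and 5.90 in iPS6F, iPS4F and ESC. In MEF it read 4.63 ± 0.12 (SD), near the dimmest detected probes. The last probe (ILMN_3079236) was lower in all 3 groups than in MEF, 1.64-fold in iPS6F cells with 1 of 3 arrays detected, 1.55-fold in iPS4F cells with 2 of 3, and at least 1.56-fold in ESC. It was dim too, at 5.11 ± 0.16 (SD) in MEF and 4.39, 4.47 and 4.41 in iPS6F, iPS4F and ESC. This last probe had passed the filter through MEF alone, so its direction was fixed by it. Averaging the 4 probes ended the iPS calls against MEF (-0.12 and -0.18, adjusted p = 0.254 and 0.0785) and kept those against ESC (-0.45 and -0.52). The call of Mdk in ESC against MEF was also lost with the authors' log2 values (0.29, 0.0525), without ESC array 2 (0.27, 0.0651) and without MEF array 3 (0.23, 0.0989). Which transcript ends the probes read was not settled here.

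**Figure D3:**
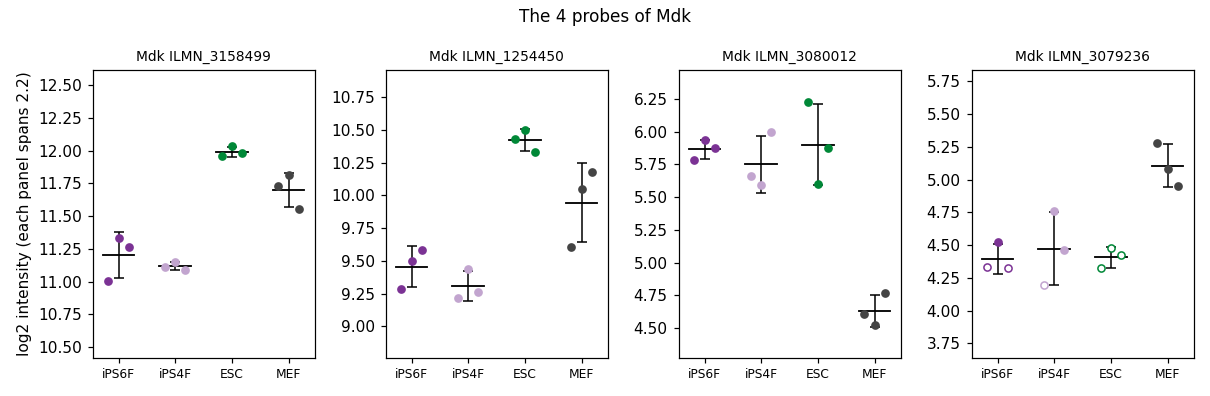
Log2 intensity of the 4 Mdk probes on the 12 arrays by group, with filled points for detected and open points for undetected signal and mean ± SD (n = 3), each panel spanning 2.2 log2 units around its own level. ILMN_3158499 and ILMN_1254450 are highest in ESC, ILMN_3080012 is lowest in MEF and ILMN_3079236 is highest in MEF.

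Receptors and co-receptors of these proteins were read from a list of 26 genes, of which 18 were tested. In iPS6F cells 14 were lower and 3 higher than in MEF, in iPS4F cells 14 and 3, and in ESC 15 and 2, and with median scaling these counts were 14 and 3, 14 and 3, and 16 and 2. The median log2 difference was -1.64, -1.39 and -1.38 with undetected genes at their bound, and 4 of the 18 had passed the filter through MEF alone. Among all genes tested, 39.4%, 39.1% and 36.3% were lower than in MEF and 39.2%, 39.8% and 40.3% higher, with quantile normalization. Ptprz1, the phosphatase bound by pleiotrophin and midkine, was at 5.67 ± 0.11 in MEF and undetected on all pluripotent arrays, at least 2.42-fold lower in iPS6F cells, 2.48-fold in iPS4F cells and 2.3-fold in ESC. Sdc3, the syndecan first known as a pleiotrophin receptor in neurons, was at least 16.7-fold lower in iPS6F cells, 16.84-fold lower in iPS4F cells with 2 of 3 arrays detected, and at least 15.9-fold lower in ESC. The syndecan Sdc2 differed by -3.73, -3.86 and -3.85, and Lrp1, an endocytic receptor of midkine and thrombospondins, by -1.67, -1.46 and -1.57. Lrp1 was detected on 1 of 3 iPS6F arrays, on all 3 iPS4F arrays and on 1 of 3 ESC arrays. Cd47, the integrin-associated receptor of Thbs1, differed by -4.51 ± 0.14, -4.40 ± 0.14 and -4.28 ± 0.14. Egfr, the epidermal growth factor receptor, which decorin binds, differed by -5.01, -4.93 and -5.15, the last with 2 of 3 arrays detected.

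The receptors that were higher in pluripotent cells included binding partners of midkine. Nucleolin (Ncl), a nucleolar protein that also binds midkine at the cell surface, was higher than in MEF by 0.87 ± 0.11 in iPS6F cells, 1.00 ± 0.11 in iPS4F cells and 1.39 ± 0.11 in ESC (SE, adjusted p at most 1.19e-06). The integrin subunit Itga6 was undetected in MEF and at least 2.08-fold, 2.12-fold and 1.92-fold higher (adjusted p at most 0.000146). The syndecan Sdc4 was higher in iPS6F cells (0.69 ± 0.12) and iPS4F cells (0.79 ± 0.12), while in ESC it differed by -0.17 (adjusted p = 0.21) and with median scaling was lower there (-0.60, 0.0123). Sdc4 stood higher in iPS6F cells than in ESC (0.86 ± 0.12, adjusted p = 2.9e-05) and in iPS4F cells than in ESC (0.96 ± 0.12, 1.12e-05), which the direct test holds also with median scaling (1.16 and 1.68).

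Most tested genes that build the sugar chains of proteoglycans were also lower than in MEF. Of all genes tested, 39.4%, 39.1% and 36.3% were lower in iPS6F, iPS4F and ESC. Of 23 genes for chondroitin and dermatan sulfate chains or their linker, 13 were tested, and 9 were lower in iPS6F cells, 10 in iPS4F cells and 10 in ESC, with 0 higher and medians of -0.79, -0.93 and -0.76 with undetected genes at their bound. Of the 13, 2 had passed the filter through MEF alone. Csgalnact1, which starts the chondroitin chain, was at least 4.32-fold, 4.44-fold and 4.11-fold lower, and B3galt6, a linker enzyme, was 3.076-fold lower in iPS6F cells with 1 of 3 arrays detected, 2.705-fold in iPS4F cells and at least 2.9-fold in ESC. The sulfotransferases Chst15 and Chst12 differed by -1.63 and -1.21 in iPS6F cells, -1.60 and -1.28 in iPS4F cells, and -1.48 and -1.62 in ESC. Chst15 was detected on 2 of 3 iPS6F and 2 of 3 ESC arrays, and Chst12 on 1 of 3 ESC arrays. Heparan sulfate, the chain that Ptn and Mdk bind, is made by a list of 12 genes, of which 11 were tested. In iPS6F cells 10 were lower than in MEF, in iPS4F cells 10, and in ESC 10, and 1 was higher in ESC, while 1 of the 11 had passed the filter through MEF alone. The gene higher in ESC, Extl1, named after its values were seen, was undetected in MEF and at least 1.19-fold higher in ESC (adjusted p = 0.00236), a call lost with median scaling (adjusted p = 0.11). The 6-O-sulfotransferase Hs6st2 was 14.1-fold lower in iPS6F cells with 1 of 3 arrays detected, at least 13.2-fold in iPS4F cells and at least 12.2-fold in ESC. Extl2, which can end the chain, differed by -3.76, -3.74 and -3.11, and the chain polymerase Ext1 by -2.67, -2.56 and -2.14. Hs3st1, a 3-O-sulfotransferase, differed by -2.57, -3.03 and -2.49. Against ESC, 7 of the 11 were lower in iPS6F cells, beside 28% of all genes, and 5 in iPS4F cells, beside 24.9%. With median scaling these became 1 lower in iPS6F cells and 1 higher with 0 lower in iPS4F cells, so the direction against ESC is tied to the scaling.

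Keratan sulfate, hyalectans and fibrillar partners completed the surroundings of the 10 genes. Of 3 keratan sulfate genes tested of 5, the sulfotransferases Chst2 and Chst1 were lower than in MEF in all 3 groups, having passed the filter through MEF alone, and B3gnt7, which extends the chain and was detected on 1 MEF array, was higher, by 1.41 ± 0.11, 1.19 ± 0.11 and 0.91 ± 0.11 (SE) in iPS6F, iPS4F and ESC. Of 8 hyalectans and link proteins 3 were tested. Versican (Vcan), a large hyaluronan-binding proteoglycan, was at least 2.34-fold, 2.4-fold and 2.22-fold lower, while the link protein Hapln4 was at least 1.95-fold, 2.36-fold and 2.71-fold higher, undetected in MEF. The link protein Hapln3, also undetected in MEF, was at least 1.12-fold, 1.31-fold and 1.29-fold higher, the last with 2 of 3 arrays detected. Median scaling ended its call in iPS6F cells (adjusted p = 0.0956) and in ESC (0.0642). Of the collagens, proteases and growth factors that the 10 proteins bind or are cut by, 11 of 12 listed were tested and 11 were lower in each group, where 39.4%, 39.1% and 36.3% of all genes were lower. Of these 11, 7 had passed the filter through MEF alone and had to be lower. The collagen chain Col1a1 was at least 260-fold, 267-fold and 247-fold lower, Col3a1 at least 22.6-fold, 23.2-fold and 21.5-fold, and Tgfb3 at least 32.2-fold, 33.1-fold and 30.6-fold. Bmp1, the protease that cuts the propeptides of procollagen and biglycan, differed by -5.55, -5.22 and -4.72, the first with 2 of 3 arrays detected.

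**Figure D4:**
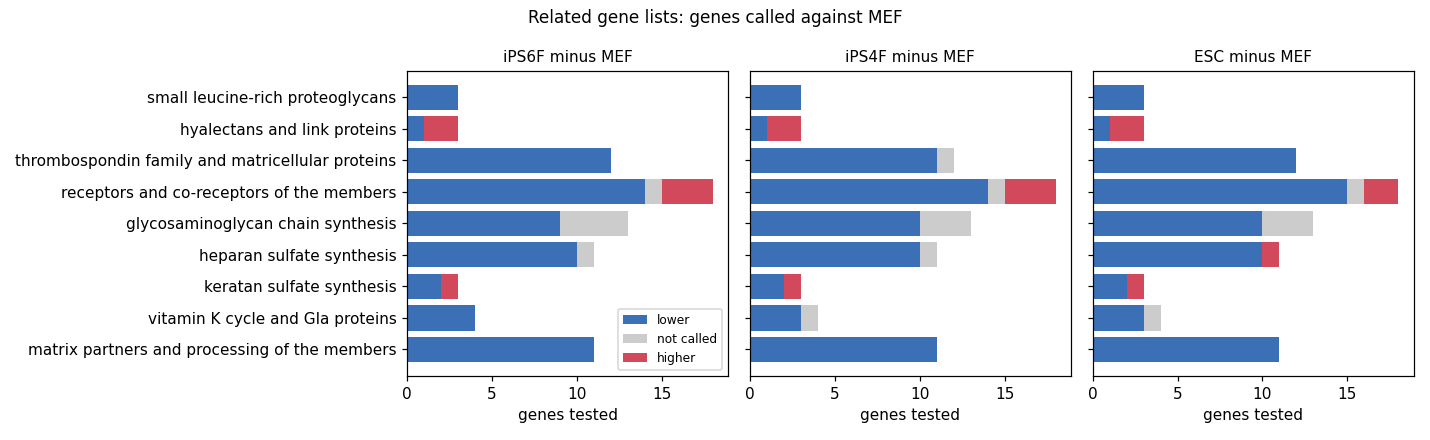
Number of tested genes of each related list that were lower, not called or higher than in MEF (adjusted p under 0.05), for iPS6F, iPS4F and ESC from left to right. The matrix partners are lower in 11 of 11 cases in each panel, and the receptor list holds 3, 3 and 2 higher genes.

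Among the pluripotent cells, Bgn and Mdk were the genes with signal enough to compare. Lum, Thbs1, Postn and Ptn were undetected on all 9 arrays and Fmod, Dcn, Mgp and Thbs2 on all but 1, 2, 2 and 3 of them, so a difference in these 8 could hardly be seen, and the counts below say little of them. Between iPS6F cells and ESC, 2 of the 10 were called, Bgn higher and Mdk lower, where 45.8% of all genes were called (17.8% higher, 28% lower). Between iPS4F cells and ESC, 3 were called, Bgn and Dcn higher and Mdk lower, where 42.7% of all genes were called (17.8% higher, 24.9% lower). Between iPS6F and iPS4F cells, 1 was called, Bgn lower, where 1.16% of all genes were called (0.396% higher, 0.763% lower). Arrays did not overlap for 2, 3 and 3 of the 10 genes in these comparisons, against 52.6%, 50.1% and 17.7% of all genes. The comparisons with ESC share the ESC arrays. They also set male iPS cells against ESC mixed from females and males, and the part of sex in these differences was not tested. Medians over the 10 genes were 0.02, 0.03 and -0.08, beside -0.07, -0.05 and -0.01 over all genes. With median scaling the call of Mdk was lost in both comparisons with ESC, and 1606 of all genes were higher and 492 lower in iPS6F cells (1799 and 2826 with quantile normalization) and 3937 higher and 231 lower in iPS4F cells (1795 and 2511).

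Biglycan (Bgn), whose values are given above, had the largest of these differences. It was higher in iPS6F cells than in ESC by 0.60 ± 0.16 (SE, adjusted p = 0.00637) and in iPS4F cells than in ESC by 1.35 ± 0.16 (8.02e-06), higher in 3 of 3 iPS arrays than in any ESC array. Both calls held under every alternative that gave a value, with 0.21 to 1.76 and 0.53 to 3.05, the low ends without background correction and the high ends with the authors' log2 values. The lower level in iPS6F than in iPS4F cells (-0.74 ± 0.16, adjusted p = 0.0372) was lost in 14 of 22 alternatives, with adjusted p from 0.0104 to 0.415, and 8 of those were single arrays left out, among them each of the iPS6F and MEF arrays and iPS4F arrays 2 and 3.

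Decorin, Mgp and Thbs2 had their only iPS detections in iPS4F cells. Dcn was higher in iPS4F cells than in ESC by 0.28 ± 0.11 (SE, adjusted p = 0.043), at least 1.02-fold, and the call was lost in 11 of 22 alternatives, with adjusted p up to 0.275. A second Dcn probe, bright in MEF, was undetected on all iPS4F and ESC arrays. Mgp differed by 0.30 ± 0.12 (adjusted p = 0.0537), with iPS4F array 1 level with the ESC arrays. Without iPS4F array 1 the difference of Mgp was 0.41 (0.00877), with the authors' log2 values 1.14 (0.0348) and with the mean of the kept probes 0.30 (0.0428). Thbs2 differed by 0.16 ± 0.10 (0.237). The iPS4F arrays were also the ones of highest mean raw intensity, 213 to 237, and the part of array brightness in these detections was not tested.

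Of the 11 fibroblast markers tested, 2 were higher than in ESC in each iPS group, Lox and Thy1, and 0 were lower, with medians over the list of -0.06 in iPS6F cells and -0.01 in iPS4F cells. Over all genes tested, 17.8% were higher than in ESC in each iPS group, a share near that of the markers. Lower than in ESC were 28% of all genes in iPS6F cells and 24.9% in iPS4F cells. The summed background-corrected intensity of the 11 markers was 51.2 to 67.5 on the iPS6F arrays, 84 to 88.1 on the iPS4F arrays, 47.5 to 62 on the ESC arrays and 21800 to 25000 on the MEF arrays, so iPS6F and ESC arrays overlapped. Col1a1, Col3a1 and Pdgfrb were undetected on every pluripotent array, as were Col5a2 and Prrx1 on the iPS arrays. Lox, the collagen cross-linking oxidase, named here after its values were seen, read 4.84, 4.62 and 4.85 on the iPS6F arrays, 5.43, 5.51 and 5.15 on the iPS4F arrays, and 4.15, 4.10 and 4.12 on the ESC arrays, where it was undetected. Thy1, a surface glycoprotein of fibroblasts and lymphocytes named likewise, read 5.22, 5.13 and 4.93 on iPS6F arrays, 5.51, 5.34 and 5.51 on iPS4F arrays, and 4.76, 4.87 and 4.44 on ESC arrays. Lox and Thy1, chosen for this, had group means in the order of Bgn, highest in iPS4F cells, then iPS6F cells, then ESC. The other 9 markers were not called. Most of them, namely Col5a2, Prrx1, Twist1, Pdgfrb, Pdgfra and S100a4, had their highest pluripotent mean in ESC, an order looked at after their values were seen. Prrx1, for example, read 4.24, 4.38 and 4.33 on iPS6F arrays, 4.25, 4.31 and 4.16 on iPS4F arrays, and 4.68, 4.18 and 4.86 on ESC arrays. The pluripotent values of these uncalled genes lay at or near the dimmest detected probes, so their order says little. Col5a2, for instance, was detected on 1 ESC array only. Against ESC, Lox was at least 1.24-fold higher in iPS6F cells and 1.86-fold in iPS4F cells, and Thy1 differed by 0.41 ± 0.13 and 0.76 ± 0.13 (SE, 2 of 3 ESC arrays detected). Between iPS6F and iPS4F cells Lox differed by -0.59 (adjusted p = 0.0187) and Thy1 by -0.36 (0.254). Their part in the level of Bgn was not tested.

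**Figure D5:**
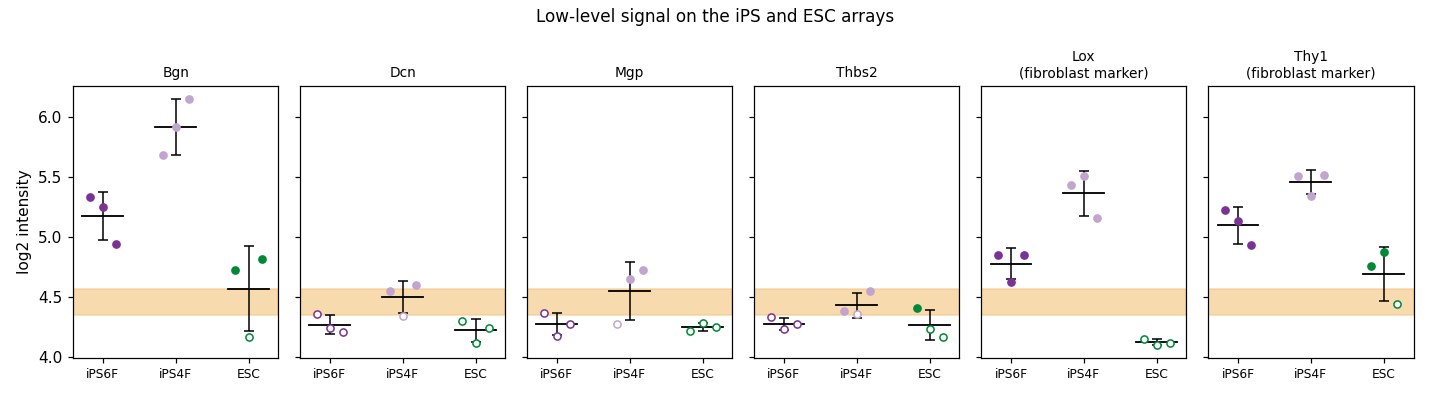
Log2 intensity of Bgn, Dcn, Mgp and Thbs2 and of the fibroblast markers Lox and Thy1 on the iPS6F, iPS4F and ESC arrays alone, filled where detected and open where not, with mean ± SD (n = 3) and the dimmest detected values of the 12 arrays as an orange band (4.35 to 4.56). Bgn, Lox and Thy1 are highest on the iPS4F arrays, while Dcn, Mgp and Thbs2 stay between 4.11 and 4.72.

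Over the 12 arrays, the genes whose log2 intensity followed each of the 10 most closely are given by Pearson's r, as a description. The MEF arrays hold nearly all of the spread of 9 of the 10 genes, so these values mostly record the gap between 3 MEF and 9 other arrays. Nearest to Lum was its family member Ogn (0.9999), nearest to Dcn was Thbs2 (0.9998), nearest to Ptn were Sox9, Cavin3 and Pamr1 (0.9998 each), and nearest to Mgp was Adh1 (0.9995). Fmod lay nearest to Ly96 (0.9993), Thbs1 to Gdf10 (0.999) and Postn to Ifi202b (0.9825). Nearest to Bgn were Lox (0.9977), Cdkn1c (0.9975) and App (0.9974). Mdk stood apart from the other 9 genes, with r between 0.193 and 0.315, and its nearest genes were Fkbp11 (0.9803), Coa8 (0.9739) and Tmem126a (0.9725).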

How the data were processed

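The study profiled RNA of 12 samples on Illumina mouse bead arrays, and their titles place them in the iPS6F, iPS4F, ESC and MEF groups. One deposited table holds raw probe intensities, each followed by a detection p-value, per the file headers. The authors' log2 values of these arrays are in a second deposited table, where every column has a median of 1.16 and the lowest value is -0.50. How that table was made is not given in the sources used here. BeadStudio 3.2, RMA and lumi are named, without roles, per the submitters' processing notes.

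Background correction (estimated through the detection p-values, offset 16), quantile normalization and log2 were done with neqc of limma 3.58.1 under R 4.3.3, which understates folds of dim probes. The platform annotation gave 1 gene symbol for 34885 of 45281 probes, several for 18 and none for 10378. Probes with detection p under 0.05 on every array of some group stayed (15294 with 1 symbol), and the probe of highest mean stood for its gene. A linear model with 4 group means covered all 12 arrays, and eBayes gave two-sided tests of 6 differences, adjusted by Benjamini-Hochberg over 10096 genes, with calls at 0.05. The code was tested on simulated data. Means are given ± SD, differences ± SE, and 3 arrays a group limit the precision.

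The 10 genes and all lists were chosen with earlier results of these data known. Genes named were the 10, up to 4 per list with the largest called difference from MEF, known receptors of Ptn, Mdk or the thrombospondins, and genes near by correlation. Family genes and cell markers are also named where their detection is described, and Thbs3, Extl1, Lox and Thy1 were named after their values were seen. Marker lists covered fibroblasts, macrophages, smooth muscle, pluripotent cells, endothelium, cartilage, bone, neural and glial cells, epithelium and primitive endoderm. Alternatives changed the scaling, background correction, offset, detection filter, probe choice, eBayes settings, replicate block and the arrays used, and the authors' log2 values were also fitted.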

Additional observations from a re-analysis of the deposited data

Results flagged for a closer look

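Biglycan's difference from MEF was not the same in the pluripotent groups, by the direct test between them. It was smaller in iPS6F cells than in ESC by 0.60 on the log2 scale (adjusted p = 0.00637) and in iPS4F cells than in ESC by 1.35 (8.02e-06), and iPS6F minus iPS4F came to -0.74 (0.0372). The first and second held in all 22 alternatives and the third in 8 of 22. Decorin's difference from MEF was smaller in iPS4F cells than in ESC by 0.28 (adjusted p = 0.043), a call lost in 11 of 22 alternatives.

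Midkine's difference from MEF was negative in both iPS groups and positive in ESC. The direct differences from ESC were -0.79 in iPS6F cells (adjusted p = 2.66e-05) and -0.87 in iPS4F cells (1.23e-05). They were also called for the second bright Mdk probe and not for the other, much dimmer pair of Mdk probes, and median scaling ended both calls. With 3 arrays a group, no single array was tested as an outlier.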

How the results depend on the processing

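Of 36 differences called among the 10 genes, 29 were called the same way under every alternative that gave a value. Most of these were calls against MEF of the 8 genes that passed the filter through MEF alone, whose direction was fixed by it. The calls lost somewhere were those of Mdk, of Dcn in iPS4F cells against ESC and of Bgn between the iPS groups. No called difference turned its sign under these alternatives, which keep or average the probes. Taken alone, dimmer Mdk probes ran the other way against MEF (1.23 and 1.12 for ILMN_3080012 in iPS6F and iPS4F cells, at least 1.56-fold lower for ILMN_3079236 in ESC). The direction of ILMN_3079236 was fixed by the filter, which it passed through MEF alone. With detection p under 0.01 required on all 12 arrays, only Mdk was left to test, so the counts of called genes became 1, 1 and 1 against MEF, where they had been 10 each, 1 and 1 against ESC and 0 between the iPS groups. With median scaling the counts against ESC were 1 in iPS6F cells and 1 in iPS4F cells, against 2 and 3 with quantile normalization. The count of 1 between iPS6F and iPS4F cells became 0 with no background correction, the authors' log2 values, no filter, the replicate block, only the compared groups and every kept probe fitted, and ran from 0 to 1 when single arrays were left out.

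Arrays of the same number did not deviate together (r from -0.176 to 0.14 over 18 pairs, 3 of them over 0.1), so the numbers are not taken to pair samples. The replicate block ended 1 call, Bgn in iPS6F against iPS4F cells (-0.74, adjusted p = 0.0524). In the comparisons with MEF, median scaling moved the split of all called genes to 3206 higher and 3650 lower in iPS6F cells (3960 and 3973 with quantile normalization), 4256 and 3019 in iPS4F cells (4017 and 3944) and 2415 and 3961 in ESC (4064 and 3664). Outside MEF, Lum, Thbs1, Postn and Ptn were undetected and limited to bounds, and Dcn, Mgp, Thbs2 and Fmod had 2, 2, 3 and 1 of 9 arrays detected. Leaving out an array changed the probe of 1 of the 10 genes, Postn, without MEF array 3.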

Other observations

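Marker lists of other cell types gave further values. The summed background-corrected intensity of the 3 tested endothelial markers of 4 was 229 to 291 on iPS6F arrays, 168 to 228 on iPS4F arrays, 58.3 to 82.1 on ESC arrays and 14.9 to 22.1 on MEF arrays. For epithelial markers (3 of 4 tested) the sums were 466 to 509, 474 to 545, 374 to 414 and 11.7 to 17.4, and for cartilage markers (3 of 4) 17.7 to 22, 17.9 to 27, 15 to 22.2 and 512 to 537, in the same order of groups. Sox9, the cartilage regulator, was undetected on every pluripotent array, and Col2a1, the cartilage collagen, on every MEF array. The primitive endoderm list, of which Gata6 alone was tested (1 of 4), gave 41.9 to 73, 26.2 to 42.2, 47.7 to 63 and 190 to 264. Neural and glial markers (2 of 4) gave 7.51 to 9.86, 7.46 to 11.6, 12.7 to 24.4 and 76 to 77.5, and no bone marker was tested. Of the 3 endothelial markers, 1 was called higher than in MEF in each pluripotent group and 0 lower. With median scaling Pecam1, undetected in MEF, differed from MEF by 3.64 in iPS6F cells and 3.64 in iPS4F cells. Kdr and Tek were not called there, at -0.06 and 0.20 in iPS6F cells and -0.09 and 0.44 in iPS4F cells. The endothelial sums therefore do not show a rise shared by the list.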
